A study of Mus musculus with 107 samples.

Results

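Neural progenitor cells (NPC) grafted into the crushed mouse spinal cord were compared at 2 times, with 5 libraries of ribosome-bound RNA recovered at 14 d and 5 recovered at 5 d. These are the libraries whose titles give grafts in spinal cord injury (SCI) at those days, 10 of the 107 libraries of the series. All the grafted cells came from a single female C57BL/6 embryonic stem cell line carrying RiboTag, an HA tag on the ribosomal protein Rpl22 that is switched on in every cell of the line by a Sox2-Cre allele. Hosts were young adult C57BL/6 mice of both sexes, wild-type or carrying other transgenes, that had a severe lateral crush at the thoracic level, received the cells 2 days later and were given no immunosuppression. The cells were injected in a hydrogel carrier at both times, and a replicate was a mouse. The grafted NPC shared 1 stem cell line, so the replicates sample hosts and grafts and not cell lines, and p-values measure the spread between these samples. The sources used here count the days in different ways, since the series design counts them from injury and the study counts them from injury in places and from grafting in others. Which derivation or passage of NPC was grafted at each time was not stated in the sources used here.

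RiboTag recovers the RNA that is loaded on tagged ribosomes by pulling on the tag, so a graft can be read out of host tissue, although some untagged host RNA comes along. In the days after a crush, blood and serum enter the lesion, macrophages clear debris and fibroblast-like cells lay down collagen, while astrocytes at its edge change shape and form a border. Grafted NPC can become astrocytes and oligodendrocyte lineage cells in this setting, and progenitors exposed to serum can take on contractile, matrix-producing features that resemble an epithelial to mesenchymal transition (EMT).

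The groups also differed in how they were sequenced. The labels give paired reads of 50 bases for every library, but the headers of the 5 d files name 1 set of reads each and those of the 14 d files name 2, so the 5 d libraries are taken here as single-read. They totalled 12286240 to 15564635 counts, and 47.5 to 48.5% of their low counts were even. The paired 14 d libraries totalled 40506790 to 77335841 counts, with both mates of a pair counted, and 53.1 to 63.6% of their low counts were even. Single reads were found in 11 libraries of the series, these 5 and the 6 NPC cultures of the second derivation at passage 15, so read type goes wholly with time in the grafts. Time, read type and depth therefore cannot be told apart by the grafts alone. The NPC cultures give the other contrast of read type, 8 paired libraries (NPC P15, the first derivation, and NPC P15 D3, the third) against the 6 single-read libraries of NPC P15 D2, the second derivation. In the cultures read type cannot be told from derivation.

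The astrocyte marker Gfap was present in all 10 graft libraries, but host astrocytes express it too, so it does not identify the graft. Gfap, the astrocyte intermediate filament, was at 5684 to 22956 CPM, which are counts scaled to the library total, at 5 d and at 7287 to 18083 CPM at 14 d. The X-linked RNA Xist was at 0 to 37.4 CPM at 5 d and 12.5 to 122 CPM at 14 d. In the cultures it was at 0.0225 to 0.155 CPM in NPC P15, 0 in NPC P15 D2 and 0 to 0.0503 CPM in NPC P15 D3. The source of Xist in the grafts was not tested. A pair of libraries stood apart. In 5 d replicate 4, 30 microglia and macrophage genes summed to 32512 CPM, against 2012 to 3319 CPM in the other 4 libraries of that time and 1528 to 5071 CPM at 14 d, and Gfap was lowest at 5684 CPM. In 14 d replicate 5, the nuclear RNA Malat1 was at 2531 CPM, against 334.8 to 1874 CPM in the other 4, and Gfap was at 7287 CPM. Myelin genes summed to 15978 and 14072 CPM in 5 d replicates 4 and 5 but to 2515 to 3271 CPM in replicates 1 to 3, and to 7667 to 16807 CPM at 14 d. In bulk RNA, fewer cells of a type and less RNA per cell cannot be told apart. The part of these host or lineage transcripts in the differences below was not tested, and counts are given with and without 5 d replicate 4 and 14 d replicate 5 where leaving out both moved them by more than 1 gene.

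**Figure D1:**
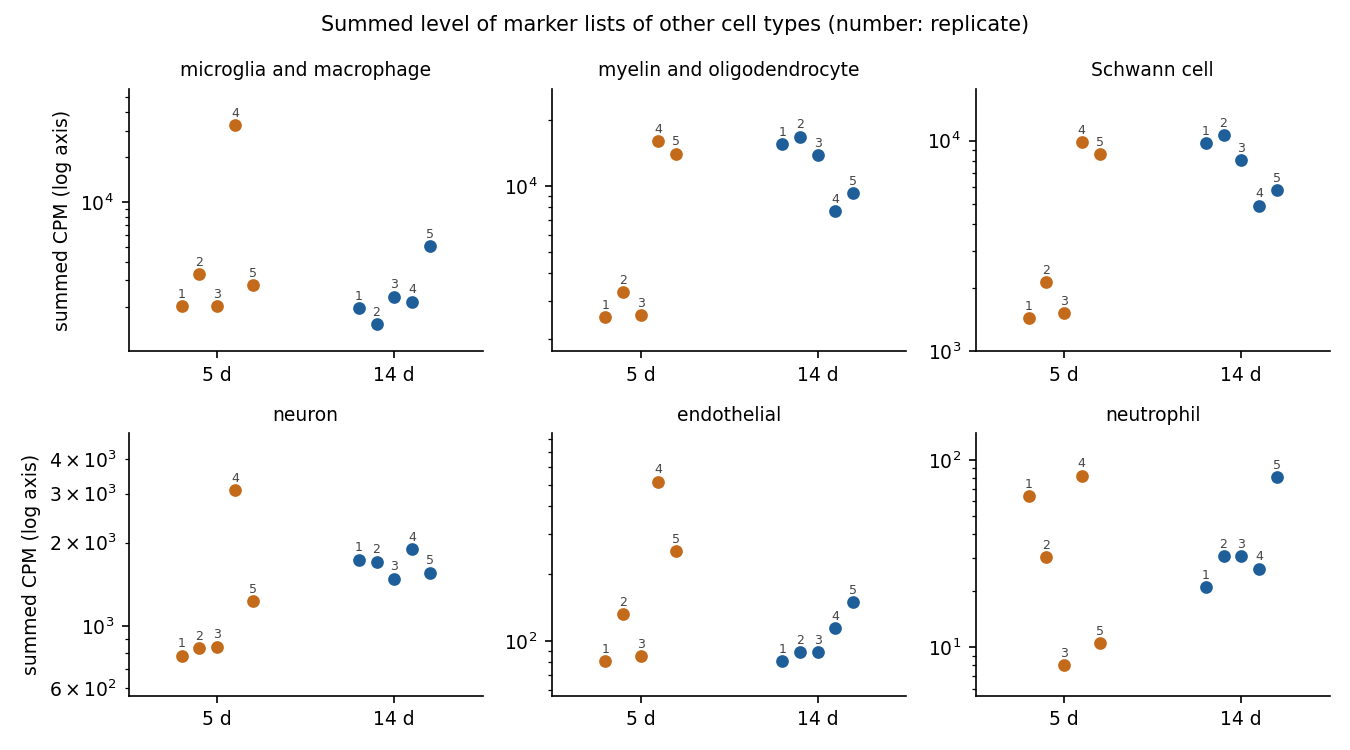
Summed level of 6 marker lists in each graft library, in CPM on log axes, with 5 d in orange and 14 d in blue and the replicate number above each point. Replicate 4 at 5 d holds 32512 CPM of microglia and macrophage genes, about 10 times its group, and 5 d replicates 4 and 5 hold as much myelin and Schwann cell signal as the 14 d grafts.

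In all, 811 of 15314 genes tested differed between 14 d and 5 d grafts (edgeR quasi-likelihood test, adjusted p below 0.01, here called DEGs). This is a background of 5.30%, with 416 DEGs higher (2.72%) and 395 lower (2.58%) at 14 d. The median log2FC of all genes tested was 0.0. Levels are given as CPM of the library total and every log2FC is scaled by TMM factors. In 1885 genes (12.3%) the CPM of the groups did not overlap, with 14 d above in 568 (3.71%) and below in 1317 (8.60%). The count of DEGs depended on single libraries. It was 406, 350 and 392 without 14 d replicates 1, 2 and 3, and 495, 367 and 385 without 5 d replicates 1, 2 and 3. Without both 5 d replicate 4 and 14 d replicate 5 it was 1404 of 15492 genes tested, 718 higher and 686 lower. Of the 811 DEGs, 757 were among them.

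Genes whose reads are hard to place made up much of the top of the list of genes that were higher at 14 d. The 6 classes examined were pseudogenes and small RNAs, genes with 20% or more of their 50-base windows shared with another gene, cytosolic ribosomal proteins, genes under 1 kb of exon, replication-dependent histones and mitochondrially encoded genes. Of 1519 genes in any class, 93 were higher and 32 lower at 14 d. Of the 13795 genes in no class, 323 were higher (2.34%) and 363 lower (2.63%). Of the 20 higher DEGs with the largest log2FC, 11 were in a class, and of the 50 largest 29 were. Among lower DEGs 3 of the 20 largest and 7 of the 50 largest were in a class.

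The classes moved in the cultures too, though not all in the same way. In the cultures, 7694 of 14699 genes (52.3%) differed between paired and single-read libraries, with 26.6% higher and 25.7% lower in the paired ones. Pseudogenes and small RNAs were higher in 36 of 239 and lower in 3 in the grafts, with a median log2FC of 0.77, and higher in 163 and lower in 37 of 377 in the cultures, with a median of 0.88. Genes with shared windows were higher in 48 and lower in 23 of 1038 in the grafts, and higher in 453 and lower in 146 of 1050 in the cultures. Cytosolic ribosomal protein genes were higher in 78 of 79 in paired cultures (median 1.31) but in 6 of 79 in the grafts, with 2 lower and a median of 0.09. Genes under 1 kb had medians of 0.50 in the cultures and -0.11 in the grafts. With increasing exon length the medians went from -0.12 below 1 kb to 0.19 above 8 kb in the grafts and from 0.50 to -0.27 in the cultures, which is the opposite order.

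**Figure D2:**
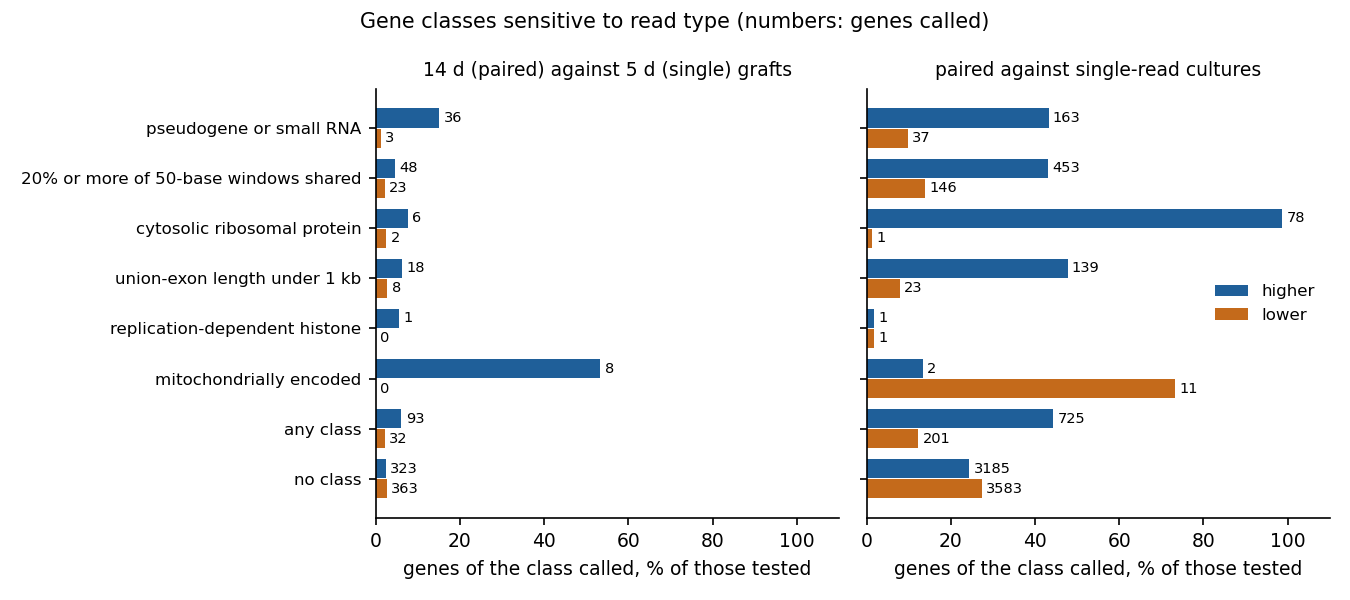
Percentage of the tested genes of each class that were DEGs, for 14 d (paired) against 5 d (single-read) grafts on the left and paired against single-read NPC cultures on the right, with genes higher in the paired libraries in blue, lower ones in orange and the number of genes beside each bar. Pseudogenes and small RNAs lean to the paired side in both, with 36 against 3 and 163 against 37, whereas the mitochondrially encoded genes lean to opposite sides.

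One case is a pair of ribosomal protein genes with the same coding sequence, printed here because no read within it can tell them apart. Rps27 (chromosome 3:90212728-90213615, minus strand, 4 coding exons, GRCm38) encodes a small subunit protein, and Rps27rt is its copy. Both coding sequences are 252 bases long with 0 differences, as read from the GENCODE transcripts, and the capitals mark the first 50 bases, the length of 1 read.
Rps27 and Rps27rt: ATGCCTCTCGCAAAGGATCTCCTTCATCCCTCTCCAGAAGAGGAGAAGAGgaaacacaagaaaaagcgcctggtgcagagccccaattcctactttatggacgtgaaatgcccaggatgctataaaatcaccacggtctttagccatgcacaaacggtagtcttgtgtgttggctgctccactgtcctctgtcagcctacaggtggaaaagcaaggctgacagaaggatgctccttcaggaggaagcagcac
Rps27rt was at 0, 0.0669, 0.0642, 0.282 and 0 CPM in 5 d replicates 1 to 5 and at 26.2, 37.4, 22.5, 16.8 and 21.2 CPM at 14 d. The copy was thus near 0 in every single-read graft and present in every paired one. The same split ran through the cultures, with 0 to 0.277 CPM in NPC P15 D2, 26.02 to 28.6 CPM in NPC P15 and 52.5 to 80.7 CPM in NPC P15 D3. Its log2FC was 8.30 ± 0.59 (SE, edgeR adjusted p = 1.5e-05). Rps27 itself was at 96.0 to 135.4 CPM at 5 d and 70.1 to 103 CPM at 14 d, with a log2FC of -0.25 ± 0.15 (edgeR adjusted p = 0.32).

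Other genes behaved as Rps27rt did. The rule used the cultures alone and was written after the values were seen. It took 16 genes at 10 CPM or more in every paired library of the first derivation (NPC P5, NPC P15 and NPC P30) and of NPC P15 D3. They were at least 10 times lower in every library of the single-read second derivation, and 11 of the 16 were in a read class. Of these 16, 15 were higher DEGs at 14 d, beside 2.72% of all genes tested. The exception, Grb10, was at 8.95 to 76.0 CPM at 5 d and 11.7 to 23.2 CPM at 14 d. The ribosomal pseudogene Gm6793 was at 0.0642 to 0.211 CPM at 5 d and 1.68 to 15.8 CPM at 14 d. Gm5148 was at 0 to 0.634 CPM and 10.9 to 40.1 CPM, and the gene with Entrez identifier 100504654, for which no name was matched, at 0.134 to 0.733 CPM and 38.4 to 74.5 CPM. All 3 were also present in paired libraries of host astrocytes, Gm5148 for example at 11.6 to 18.6 CPM in healthy cord. Rpl21, a large subunit protein with many pseudogenes, was at 3.74 to 11.0 CPM at 5 d and 40.2 to 135.1 CPM at 14 d (log2FC 3.66 ± 0.35, edgeR adjusted p = 0.00017), and its log2FC between paired and single-read cultures was 4.05. The short noncoding RNAs Bc1, of neuronal cytoplasm, and Rn7sk, which restrains transcription elongation, rose by log2FC 7.08 and 5.70 in the grafts and by 6.93 and 4.23 in the paired cultures. The rises of these genes could follow from read type.

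To set each graft difference beside the difference in culture, the log2FC of NPC P15 D3 (paired) against NPC P15 D2 (single-read) was subtracted from the log2FC of 14 d against 5 d, and the result is called the culture-adjusted log2FC. It removes a read-type difference only where that difference was as large in the grafts as in culture. It also carries whatever the derivations differ by. Ribosomal protein genes, exon-length bins and mitochondrially encoded genes moved differently in grafts and cultures. A call kept or lost under the culture adjustment is therefore not a test of read type. Under it Rps27rt was at -1.27, Gm5148 at -3.05, Gm6793 at -0.78 and Bc1 at -1.64. The fit with the cultures subtracted called 3822 of 15650 genes tested, 1870 higher and 1952 lower, a larger share than in the grafts alone. Counts of list members with the cultures subtracted are to be read beside that share. Of the 811 DEGs, 482 stayed DEGs in the same direction (242 higher, 240 lower), 115 changed sign and 32 became DEGs of the opposite direction. Seen the other way, 161 of the 384 higher DEGs that could be tested in culture (41.9%) were also higher in paired cultures, where 26.6% of all genes were, and these were 4.12% of the genes higher there. Of the 373 lower DEGs tested, 181 (48.5%) were lower in paired cultures, where 25.7% of all genes were, and these were 4.78% of the genes lower there. Another 100 higher and 75 lower DEGs went the other way in culture.

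A set of matrix and collagen genes fell from 5 d to 14 d. Of 41 interstitial collagen and matrix genes tested, 14 were lower, 0 were higher and 27 were not called, with a median log2FC of -1.53. In 25 of the 41 every 14 d library lay below every 5 d library. Without the 2 libraries that stood apart 31 were lower and 1 higher, with a median of -1.95. Of the 14, Loxl2 alone is in a class sensitive to read type, that of shared windows.
Tnc, which encodes the matrix glycoprotein tenascin C, was at 1062, 1102, 1751, 206 and 309 CPM at 5 d and at 54.1, 22.2, 38.4, 36.3 and 70.1 CPM at 14 d. The 5 d libraries split into 3 high and 2 low ones, and the lowest of them was still above every 14 d library. The log2FC was -4.09 ± 0.58 (edgeR adjusted p = 0.001) and the culture-adjusted one -2.42 (edgeR adjusted p = 0.0026). Cthrc1, a secreted protein of collagen-depositing cells, had the smallest adjusted p of the list, with 97.02, 81.4, 134.7, 65.3 and 53.7 CPM at 5 d and 6.66, 4.91, 5.88, 6.84 and 4.54 CPM at 14 d. Its groups were far apart and each narrow (log2FC -3.73 ± 0.26, edgeR adjusted p = 1.5e-05). Fbln2, the matrix protein fibulin 2, was at 135.1, 362, 442, 84.9 and 111 CPM at 5 d and at 18.0, 13.1, 17.2, 9.59 and 26.9 CPM at 14 d (log2FC -3.51 ± 0.49, edgeR adjusted p = 0.001). Its culture-adjusted log2FC of -3.59 was as large, since the cultures differed by 0.10.

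For several of the 14, Postn among them, the fall was not called after subtracting the cultures. Postn encodes periostin, a matricellular protein of fibroblasts, and was at 541, 1210.0, 1324, 265 and 452 CPM at 5 d and at 74.3, 25.9, 34.97, 26.7 and 84.4 CPM at 14 d. All 5 d libraries were above all 14 d libraries, with a log2FC of -3.71 ± 0.53 (edgeR adjusted p = 0.001). In culture, however, NPC P15 D3 was lower than NPC P15 D2 by a log2FC of -3.48, at means of 0.247 and 2.92 CPM, and the culture-adjusted value was -0.21 (edgeR adjusted p = 0.86). Loxl1, which cross-links elastin, had a log2FC of -3.23 and a culture-adjusted value of -1.49, Col8a1 values of -3.17 and -1.46, and Col5a1, a fibrillar collagen chain, values of -2.96 and -1.66. The major fibrillar chain Col1a1 was at 3411, 7212, 10757, 3402 and 2830.4 CPM at 5 d and at 699.9, 422, 496, 666 and 1743 CPM at 14 d. It was highest at 14 d in replicate 5, still below the lowest 5 d library (log2FC -2.51 ± 0.52, edgeR adjusted p = 0.0081, culture-adjusted -0.60 at adjusted p = 0.44). Col6a3, Lum, Loxl2, Fbln1, Col5a2 and Col5a3 made up the rest of the 14, with log2FC between -1.16 for Fbln1 and -3.87 for Col6a3. The culture-adjusted values were 4.20 for Lum, 0.98 for Col6a3, 0.89 for Col5a3, 0.33 for Loxl2 and -0.42 for Col5a2. With the cultures subtracted, 10 members of the list were lower and 3 higher, with a median of -0.37.

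Basement membrane genes and brain proteoglycans went partly the same way. Of 22 basement membrane genes 6 were lower and 0 higher, with a median log2FC of -0.58, and without the 2 libraries that stood apart 8 were lower and 1 higher. Lamb1, a laminin chain, was at 403, 445, 497, 130.2 and 182 CPM at 5 d and at 25.7, 23.4, 25.1, 30.6 and 52.95 CPM at 14 d. This was the largest fall among the 6 and the groups were well separated (log2FC -3.15 ± 0.42, edgeR adjusted p = 0.00075). The collagen IV chains Col4a1 and Col4a2 had log2FC of -2.46 and -2.13, and the laminin chains Lamc1 and Lama4 and the linker nidogen (Nid1) of -1.75, -2.67 and -1.71. Col4a1 and Col4a2 were no longer DEGs without 14 d replicate 1, 2 or 3, at edgeR adjusted p up to 0.013 and 0.011. After the same adjustment 3 genes of the list were lower and 4 higher, with a median of 0.39.
Of 23 lecticans and other proteoglycans 4 were lower and 2 higher, and without the 2 libraries that stood apart 7 were lower and 3 higher. Ncan, which encodes neurocan, a chondroitin sulfate proteoglycan of immature neural tissue, was at 1214, 1214, 907, 313 and 1213 CPM at 5 d and at 177, 185, 187.2, 191.8 and 141 CPM at 14 d. Apart from 5 d replicate 4 the levels were tight within each time (log2FC -2.28 ± 0.31, edgeR adjusted p = 0.00084, culture-adjusted -0.70 at adjusted p = 0.084). The heparan sulfate proteoglycans Gpc1 and Gpc4 had log2FC of -2.03 and -1.94, and both were DEGs under the culture adjustment. The 2 that rose, Cspg4 and Ptprz1, are carried by oligodendrocyte progenitors and are described with them.

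Some matrix proteases and contractile genes fell as well. Of 27 matrix proteases and inhibitors 8 were lower and 2 higher (Mmp15 and Timp4), with a median log2FC of -1.43, and without the 2 libraries that stood apart 12 were lower and 1 higher. Mmp13, a collagenase, was at 207, 314, 174, 63.9 and 70.9 CPM at 5 d and at 0, 0.345, 0.395, 4.93 and 4.15 CPM at 14 d. It was near absent from the first 3 libraries at 14 d (log2FC -6.14 ± 1.14, edgeR adjusted p = 0.0042), and it was not a DEG without 14 d replicate 2 or 3 or 5 d replicate 2, with adjusted p up to 0.015. Mmp9, a gelatinase, was at 100.1, 161, 77.5, 37.1 and 100.9 CPM at 5 d and at 4.85, 0.799, 0.758, 0.668 and 3.80 CPM at 14 d. The groups were apart in every library (log2FC -5.25 ± 0.67, edgeR adjusted p = 0.00062). Mmp14, a membrane-bound protease that activates others, was at 3208, 3849.8, 3083, 1209.6 and 1417 CPM at 5 d and at 575, 622, 591, 755 and 347.8 CPM at 14 d. Every 14 d library lay below every 5 d one, a fall of 1.97 on the log2 scale (edgeR adjusted p = 0.0025). Mmp14 lost its call without 14 d replicate 1, 2 or 3, at adjusted p up to 0.011. Its culture-adjusted log2FC of -1.86 was a DEG, whereas those of Mmp13 (-2.28) and Mmp9 (-2.14) had edgeR adjusted p of 0.78 and 0.22, with cultures under 1 CPM. Under the culture adjustment 2 genes of the list were lower and 6 higher. Mmp10, Adamts9, Adam12 and Timp3 were also among the lower DEGs.

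Of 20 smooth muscle contractile genes 6 were lower and 0 higher, with a median log2FC of -0.84. Acta2, smooth muscle actin, was at 367, 329.5, 636, 104.7 and 117 CPM at 5 d and at 48.98, 31.4, 44.6, 23.97 and 14.5 CPM at 14 d. Replicates 4 and 5 were the low libraries at 5 d and were still above every 14 d library (log2FC -3.10 ± 0.48, edgeR adjusted p = 0.0016). The tropomyosins Tpm2, Tpm4 and Tpm1 had log2FC of -2.22, -1.12 and -1.03, and Tagln, an actin-binding protein of smooth muscle that is in the class of shared windows, one of -2.45. Actg2, the enteric smooth muscle actin, was at 0.779 to 6.68 CPM at 5 d and had no count in any 14 d library, which makes it at least 37.99-fold lower when 3 counts in the shallowest 14 d library are taken as the floor. The list held its direction under the culture adjustment, with 6 lower and 1 higher and a median of -0.97, Acta2 being at -2.82 (edgeR adjusted p = 0.00089) and Tpm2 at -0.09 (edgeR adjusted p = 0.89). Tpm4 and Tpm1 lost their calls in 5 and 8 of the 10 fits that left out 1 library, with edgeR adjusted p up to 0.017 and 0.021.

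**Figure D3:**
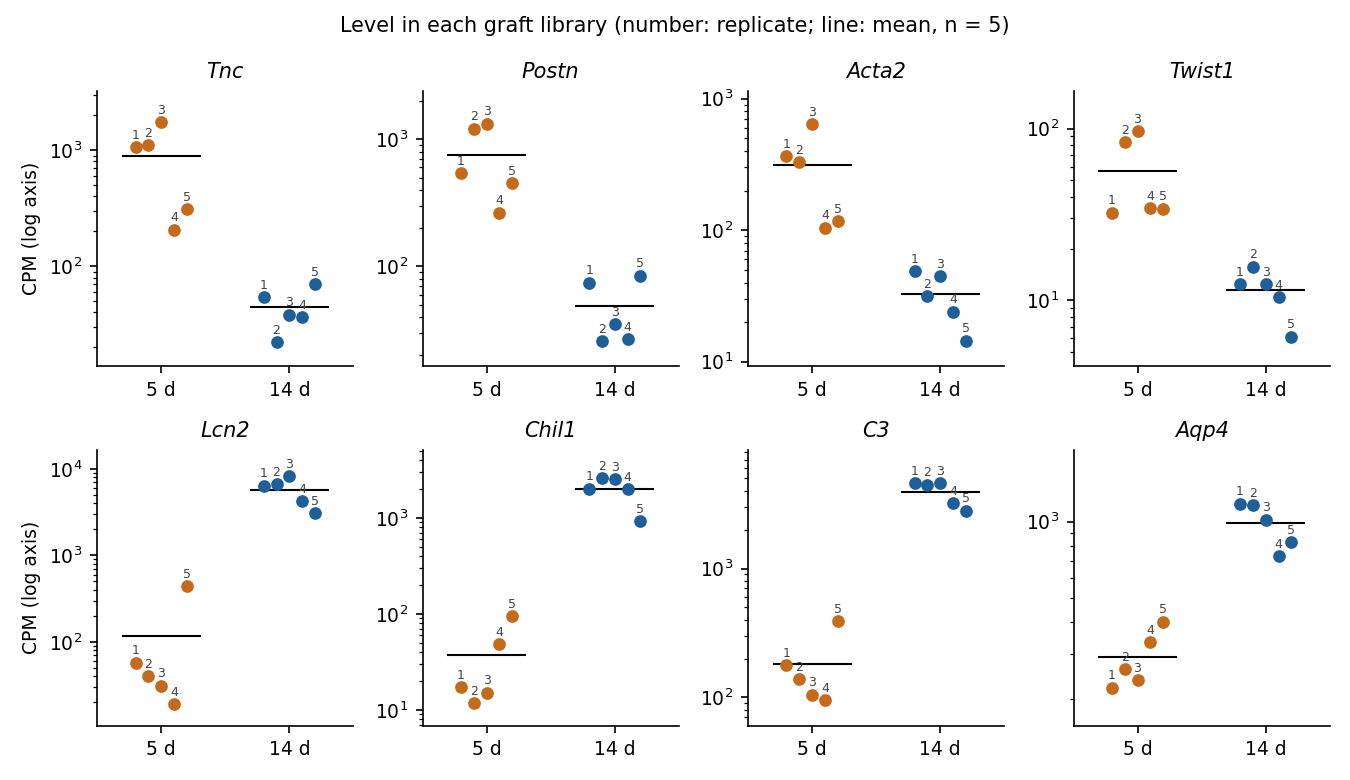
CPM of 8 genes in each graft library on log axes, 5 d in orange and 14 d in blue, with the replicate number above each point and a line at the mean of 5 libraries. The 5 d and 14 d libraries do not overlap in any of the 8, with Tnc, Postn, Acta2 and Twist1 lower and Lcn2, Chil1, C3 and Aqp4 higher at 14 d.

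Of 13 EMT transcription factors 3 fell and 0 rose, and 4 fell and 1 rose without the 2 libraries that stood apart. Twist1, which drives mesenchymal programmes, was at 32.3, 83.6, 96.7, 34.4 and 34.2 CPM at 5 d and at 12.4, 15.7, 12.5, 10.5 and 6.15 CPM at 14 d. Every 14 d library was lower than every 5 d library (log2FC -2.13 ± 0.34, edgeR adjusted p = 0.0018), and the culture-adjusted fall was larger, at -3.06 (edgeR adjusted p = 2.2e-06). Snai1 and Snai2, repressors of cadherins, had log2FC of -1.47 ± 0.26 and -1.60 ± 0.32, and culture-adjusted values of -2.72 and -2.54 that were also DEGs. Snai1 and Snai2 lost their calls in 4 and 8 of the 10 fits without 1 library, at edgeR adjusted p up to 0.014 and 0.024. Prrx1 had a log2FC of -1.22 (edgeR adjusted p = 0.01, not below the threshold) and Zeb2, which oligodendrocyte lineage cells also use, one of 0.94 (edgeR adjusted p = 0.06), and neither was called.

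Of 29 TGF-beta and BMP pathway genes 4 were lower and 0 higher. Pmepa1, a feedback inhibitor induced by TGF-beta, was at 853, 822, 1113, 418 and 299 CPM at 5 d and at 175.02, 163, 195, 201 and 187.3 CPM at 14 d. The 14 d libraries sat within a narrow band below all 5 d libraries (log2FC -1.74 ± 0.32, edgeR adjusted p = 0.0039, culture-adjusted -0.85 at adjusted p = 0.057). Ltbp1, which stores latent TGF-beta in matrix, and the target Tgfbi had log2FC of -1.89 and -1.66. Neither held under the culture adjustment, with values of -0.17 for Ltbp1 and 1.48 for Tgfbi, and the list then held 5 lower and 6 higher genes. Pmepa1 lost its call in 6 and Ltbp1 and Tgfbi in 7 of the 10 fits that left out 1 library, and without both libraries that stood apart 8 genes of the list were lower and 1 higher.
Of 18 Notch pathway genes 3 were lower and 0 higher, and 6 were lower without those 2 libraries. Nrarp, a direct Notch target that limits signalling, was at 54.4, 28.7, 31.03, 11.8 and 22.5 CPM at 5 d and at 0.0776, 3.84, 1.63, 1.77 and 2.62 CPM at 14 d. Every 14 d library lay below every 5 d one (log2FC -3.70 ± 0.72, edgeR adjusted p = 0.0057). Nrarp fell by 3.63 under the culture adjustment, and it is in the class of shared windows. The receptor Notch3 and the ligand Jag1 had log2FC of -1.55 and -1.69 and culture-adjusted values of -0.09 and 0.34. All 3 lost their calls in 7 or 8 of the 10 fits without 1 library, at edgeR adjusted p up to 0.029 for Jag1.

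The secreted proteins Lcn2, Chil1 and Saa2 were among the largest rises. Lcn2, lipocalin 2, an iron-siderophore binding protein of reactive astrocytes, was at 57.5, 39.8, 31.1, 18.9 and 445 CPM at 5 d and at 6449, 6698, 8237, 4258 and 3099 CPM at 14 d. Replicate 5 was by far the highest at 5 d and lowest at 14 d, and the groups were still apart (log2FC 5.77 ± 0.89, edgeR adjusted p = 0.0015). Chil1, a chitinase-like protein of border astrocytes, was at 17.1, 11.6, 15.1, 48.2 and 94.5 CPM at 5 d and at 2035, 2626, 2562, 2017 and 934 CPM at 14 d. Its log2FC was 5.91 ± 0.64 (edgeR adjusted p = 0.00029). Both had means of 0.339 to 1.81 CPM in the 3 culture groups, and their culture-adjusted log2FC were 5.59 for Lcn2 and 5.00 for Chil1. Saa2, an acute-phase apolipoprotein, was at 0, 0, 0, 0.282 and 1.34 CPM at 5 d and at 24.04, 14.3, 35.5, 67.6 and 13.8 CPM at 14 d. It was absent from 3 of 5 libraries at 5 d and present in all 5 at 14 d, and it shares windows with a paralog.

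Of 18 glia limitans and border astrocyte genes 4 were higher and 3 lower, with a median log2FC of -0.20, and without the 2 libraries that stood apart 4 were higher and 5 lower. Under the culture adjustment 7 were higher and 4 lower, with a median of 0.48. Myoc, myocilin, a secreted protein of astrocytes at the pial surface, was at 16.4, 9.84, 4.11, 6.27 and 25.4 CPM at 5 d and at 497, 455, 332.3, 363 and 248 CPM at 14 d. All 14 d libraries were about 10 times or more above the highest 5 d one (log2FC 5.09 ± 0.46, edgeR adjusted p = 0.00011). Its culture-adjusted log2FC was -1.26 (edgeR adjusted p = 0.63), but it had no count in NPC P15 D2 and a mean of 0.289 CPM in NPC P15 D3, so that adjustment rests on almost no counts. C4b, a complement component, and Clu, the chaperone clusterin, were the other 2 that rose. Aqp1, a water channel of choroid plexus, was at 46.1, 54.9, 98.8, 25.7 and 21.5 CPM at 5 d and at 3.45, 3.95, 1.70, 2.79 and 6.81 CPM at 14 d, so it fell clearly while Aqp4 rose (log2FC -3.49 ± 0.49, edgeR adjusted p = 0.001). Crym and Gpc4 also fell, with log2FC of -3.67 and -1.94.

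Among 42 reactive astrocyte genes 6 rose and 5 fell, and without the 2 libraries that stood apart 10 rose and 7 fell. C3, the central complement component, was at 177, 139, 105.2, 95.3 and 389 CPM at 5 d and at 4573, 4463, 4583, 3202 and 2808 CPM at 14 d. Replicate 5 was again the highest at 5 d and the lowest at 14 d (log2FC 4.60 ± 0.41, edgeR adjusted p = 0.00011, culture-adjusted 3.59). Tgm1, a transglutaminase, rose by 3.48, Serping1, the inhibitor of complement C1, by 1.71, the metalloreductase Steap4 by 2.09 and the copper-carrying ferroxidase Cp by 1.43. Those that fell were Emp1 (-1.45), the galectin Lgals1 (-1.40), the TWEAK receptor Tnfrsf12a (-1.48), osteopontin (Spp1, -3.65) and Sphk1 (-1.26). Gfap and Vim, the filaments that define the reactive state, had log2FC of 0.11 ± 0.36 (edgeR adjusted p = 0.88) and -0.10 ± 0.29 (edgeR adjusted p = 0.87).

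Complement genes were higher in 6 of 17 and lower in 0, a median log2FC of 0.58 and 1.13 without the 2 libraries that stood apart. Besides C3, C4b was at 143, 132, 109, 214 and 257 CPM at 5 d and at 828, 764, 720.0, 438 and 453 CPM at 14 d, with no overlap (log2FC 2.05 ± 0.27, edgeR adjusted p = 0.00072). Clu, Serping1 and the C1 proteases C1ra and C1s1 rose by 1.94, 1.71, 1.21 and 1.43 on the log2 scale. C4b, C1ra and C1s1 are in the class of shared windows, since each has a close copy. Between paired and single-read cultures their log2FC were -1.40, 0.58 and -1.06, so C4b and C1s1 went the opposite way there and C1ra the same way as in the grafts. With the cultures subtracted 4 genes of the list were higher and 0 lower, Serping1 (0.75) and C1ra (0.37) being no longer called.

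A minority of the genes of mature astrocyte function rose. Of 26 astrocyte transport and channel genes 5 were higher and 0 lower, with a median log2FC of 0.72 and 24 of 26 values above 0. Aqp4, the water channel of astrocyte endfeet, was at 222, 262, 237, 334.6 and 404 CPM at 5 d and at 1176, 1161, 1018, 729 and 829 CPM at 14 d. The lowest 14 d library was well above the highest 5 d one (log2FC 1.91 ± 0.22, edgeR adjusted p = 0.00035), and the rise of 1.29 under the culture adjustment was a DEG (edgeR adjusted p = 0.005). Hepacam, an adhesion protein of endfeet, was at 202, 168.4, 149, 184.1 and 358 CPM at 5 d and at 659.7, 749, 666, 543 and 358 CPM at 14 d. Its groups met at replicate 5 of each time (log2FC 1.64 ± 0.25, edgeR adjusted p = 0.0015). Atp13a4, a relative of polyamine transporters, rose by 1.89.
In single-read cultures 16 of the 26 genes were higher than in paired ones, against the direction of the grafts, and under the culture adjustment 13 of 26 were higher and 0 lower, with a median of 1.51. Atp13a4 lost its call in 7 of the 10 fits that left out 1 library, at edgeR adjusted p up to 0.025.

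Of 31 genes of astrocyte metabolism and secretion 3 were higher and 0 lower, and 6 were higher and 3 lower without the 2 libraries that stood apart. The median log2FC was 0.15. Clu was at 1234, 1269, 1173, 876 and 1839.7 CPM at 5 d and at 5969, 5387, 5331, 3015 and 2441 CPM at 14 d. Agt, the angiotensinogen precursor that astrocytes secrete, was at 528, 571, 500.4, 252 and 1183 CPM at 5 d and at 2099, 2427, 2529.9, 1129 and 961 CPM at 14 d. Clu was apart between times, whereas for Agt the 5 d replicate 5 was above 14 d replicates 4 and 5. The log2FC of Agt was 1.75 ± 0.37 (edgeR adjusted p = 0.0093) and it was called in 4 of the 10 fits without 1 library, at adjusted p up to 0.031. The stress-responsive gene Fam107a rose by 2.78 (edgeR adjusted p = 0.0018), and under subtraction of all paired against single-read cultures it was at -0.76, its culture levels being below 1 CPM. Fabp7, a fatty acid carrier of radial glia, was at 2197, 1568, 1350.2, 399 and 1230.1 CPM at 5 d and at 368, 429, 506, 605 and 217 CPM at 14 d, overlapping through 5 d replicate 4, and it was not called (log2FC -1.50, edgeR adjusted p = 0.022). It was a DEG without the 2 libraries that stood apart (edgeR adjusted p = 0.0012).

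Of 28 chemokines, cytokines and growth factors tested, 3 were higher and 3 lower, and 4 were higher and 5 lower without the 2 libraries that stood apart. Cxcl1, a neutrophil attractant, was at 0.977, 0.803, 1.67, 0.282 and 2.48 CPM at 5 d and at 13.8, 7.08, 8.90, 14.0 and 11.0 CPM at 14 d. Cxcl12, which guides progenitors and stays on astrocytes and meninges, was at 10.7, 25.4, 13.1, 69.5 and 69.9 CPM at 5 d and at 401, 334, 376, 271 and 238 CPM at 14 d. Both groups were apart for each, with log2FC of 3.34 ± 0.51 (edgeR adjusted p = 0.0015) and 3.25 ± 0.51 (edgeR adjusted p = 0.0016). Under the culture adjustment Cxcl1 was at 5.94 and Cxcl12 at 1.15 (edgeR adjusted p = 0.099). Cxcl5 rose by 3.31 and was called in 1 of the 10 fits that left out 1 library. The alarmin Il33 fell by 1.51 (culture-adjusted 0.73), and the growth factor pleiotrophin (Ptn) had a log2FC of -1.26. Spp1, osteopontin, made by macrophages as well as by glia, was at 1539.8, 2286, 1714, 12437 and 921 CPM at 5 d and at 163, 119.1, 276, 382 and 387 CPM at 14 d. Replicate 4, the library with the high macrophage genes, was the outlying value, and without it and 14 d replicate 5 the log2FC was -2.61 (edgeR adjusted p = 0.001) instead of -3.65.

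Promoter sequence was searched on both strands for 3 motifs, the NF-kB site, the CArG box and the C/EBP core (TTNNGNAA). The NF-kB site was found within 250 bases before the start in 14.4% of the promoters of higher DEGs (53 of 369), 10.3% of those of lower DEGs (36 of 350), 9.22% of those of all genes tested and 7.25% of all 32851 RefSeq promoters. By list, it was in 8 of 25 promoters of chemokines and cytokines, 5 of 18 of smooth muscle contractile genes, 6 of 42 of reactive astrocyte genes, 3 of 28 of collagen and matrix genes, 1 of 13 of complement genes and 1 of 29 of astrocyte transport genes. The C/EBP core was in 29.8% of promoters of higher DEGs and 30.9% of those of lower DEGs. It was in 28.4% of those of all genes tested and 36.8% of all RefSeq promoters. For the CArG box these shares were 1.63, 1.43, 1.13 and 1.47%. By list, the C/EBP core was in 13 of 25 promoters of chemokines and cytokines and 22 of 42 of reactive astrocyte genes. The core was in 8 of 13 promoters of complement genes and 6 of 18 of smooth muscle contractile genes. It was in 9 of 28 of collagen and matrix genes and 8 of 29 of astrocyte transport genes. The CArG box was in 3 of 18 promoters of smooth muscle contractile genes and in 0 of those of the other lists. Cxcl1 and Chil1 are printed as 2 genes that rose and hold the NF-kB site, with the matches in capitals (RefSeq, GRCm38.p6, 250 bases before the start, plus strand).
Cxcl1, chr5:90890995-90891244: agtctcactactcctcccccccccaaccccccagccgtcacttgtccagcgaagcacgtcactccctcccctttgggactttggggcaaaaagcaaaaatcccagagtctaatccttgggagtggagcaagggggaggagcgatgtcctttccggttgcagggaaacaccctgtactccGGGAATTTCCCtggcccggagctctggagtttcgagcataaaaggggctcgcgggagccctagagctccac
Chil1, chr1:134181906-134182155: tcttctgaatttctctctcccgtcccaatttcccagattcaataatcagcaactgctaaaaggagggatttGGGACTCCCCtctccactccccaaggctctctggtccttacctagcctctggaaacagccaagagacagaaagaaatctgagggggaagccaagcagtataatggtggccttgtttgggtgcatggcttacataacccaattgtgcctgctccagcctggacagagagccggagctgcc
The 2 matches of Cxcl1 overlap. A match is a description of the letters and no evidence of binding.

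Iron handling genes changed in both directions. Of 13 tested 4 rose (Lcn2, Cp, Steap4 and the haemoglobin scavenger haptoglobin, Hp, at log2FC 3.26) and 2 fell. Hmox1, heme oxygenase 1, which breaks down heme, was at 197, 513, 363, 559 and 224 CPM at 5 d and at 45.1, 53.5, 60.7, 58.2 and 30.98 CPM at 14 d. Slc40a1, the iron exporter ferroportin, was at 110.4, 205, 195, 63.8 and 56.5 CPM at 5 d and at 9.65, 9.94, 5.54, 4.52 and 11.1 CPM at 14 d. Both were lower in every 14 d library than in any 5 d one, with log2FC of -2.74 and -3.75 (edgeR adjusted p = 0.00036 and 0.00032). Their culture-adjusted values were -2.94 and -2.25, the latter at edgeR adjusted p = 0.012.

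Mitochondrially encoded genes are a read class that moved against the cultures. All 15 tested had log2FC above 0 and 8 were DEGs, with a median of 2.06, and their summed level was 1331 to 2985 CPM at 5 d and 7259 to 12948 CPM at 14 d. ND4, a subunit of respiratory complex I, was at 180.4, 253, 235, 113 and 182 CPM at 5 d and at 836, 899.9, 869, 1793 and 1249 CPM at 14 d. The 14 d libraries were higher throughout (log2FC 2.76 ± 0.31, edgeR adjusted p = 0.00032). In the cultures 11 of 15 were lower in paired libraries and 2 higher, with a median of -0.89. In the grafts the nuclear RNA Malat1 also had a higher median at 14 d, 630.7 CPM against 299.1 CPM at 5 d, though the groups overlapped. Whether RNA not bound to tagged ribosomes made up more of the 14 d libraries was not tested. The rise of the mitochondrially encoded genes is therefore not read as a change within the grafted cells. Of the nuclear-encoded respiratory chain subunits 0 of 53 were higher and 1 was lower (Cox7a2, log2FC -1.36), whereas 39 were lower and 1 higher under the culture adjustment, the cultures having 41 higher and 5 lower in paired libraries.

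Several oligodendrocyte progenitor genes rose, while few myelin genes were called. Of 18 progenitor genes 8 were higher and 1 lower (median log2FC 1.68), and 10 and 2 without the 2 libraries that stood apart. Olig2, the transcription factor that sets the lineage, was at 47.3, 50.9, 49.2, 69.8 and 132 CPM at 5 d and at 347.8, 347.2, 306, 172.3 and 187.2 CPM at 14 d. Replicate 5 stood above the other 5 d libraries and below all 14 d ones (log2FC 2.11 ± 0.30, edgeR adjusted p = 0.0011, culture-adjusted 2.04). Cspg4, the NG2 proteoglycan, was at 38.1, 40.8, 55.1, 93.5 and 61.2 CPM at 5 d and at 161, 166, 171.8, 116 and 147 CPM at 14 d, again with no overlap (log2FC 1.56 ± 0.25, edgeR adjusted p = 0.0019). Olig1, Sox6, Ptprz1, Cacng4, Nkx2-2 and the growth factor receptor Pdgfra also rose, by 1.79, 1.42, 1.36, 2.24, 1.29 and 1.19. Under the culture adjustment 10 of the list were higher and 1 lower, and Pdgfra was at -0.82. The matrix gene Matn4, placed in this list, fell from 116 to 152 CPM down to 4.02 to 23.8 CPM.
Among 26 myelin genes 1 was higher, Bcas1, a marker of cells starting to myelinate, at 233, 177, 205, 493 and 601 CPM at 5 d and 1426, 1354, 1181, 879 and 574 CPM at 14 d. It overlapped through replicate 5 of both times (log2FC 1.80 ± 0.36, edgeR adjusted p = 0.0071) and was called in 3 of the 10 fits that left out 1 library. Mbp, the major myelin protein, was at 811, 919.8, 1017, 6324 and 5485 CPM at 5 d and 2548 to 6210.4 CPM at 14 d, and was not called (log2FC 0.75 ± 0.58, edgeR adjusted p = 0.45). With 5 d replicate 4 and 14 d replicate 5 left out 3 myelin genes were higher and 1 lower, with a median of 1.46 instead of 0.76.

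A minority of progenitor and proliferation genes were called, to be read beside 5.30% of all genes tested (2.72% higher and 2.58% lower). Of 30 neural progenitor genes 3 were higher (Olig1, Olig2 and Hmga1) and 1 lower, with a median of 0.0, and without the 2 libraries that stood apart 4 were higher and 4 lower. Tead2, a transcription factor of dividing progenitors, was at 94.3, 97.4, 98.7, 39.05 and 68.5 CPM at 5 d and at 8.62, 14.8, 16.6, 18.8 and 6.07 CPM at 14 d. The groups did not overlap (log2FC -2.45 ± 0.33, edgeR adjusted p = 0.00078, culture-adjusted -3.31). Of 44 cell cycle genes 3 were lower and 1 higher, with a median of -0.52, 35 of the 44 values being below 0. With the cultures subtracted 11 were lower and 4 higher, with a median of -0.33. Cdk1, the mitotic kinase, was at 27.3, 32.6, 25.8, 29.9 and 29.9 CPM at 5 d and at 14.2, 8.26, 14.3, 11.7 and 10.0 CPM at 14 d. Ccnd1, the G1 cyclin D1, which is in the class of shared windows, was at 92.1, 126, 118, 159.6 and 142 CPM at 5 d and at 390.2, 281, 300.2, 268 and 230.3 CPM at 14 d. The kinase was lower in every 14 d library than in any 5 d one and the cyclin higher (log2FC -1.14 ± 0.21 and 1.36 ± 0.18, edgeR adjusted p = 0.0037 and 0.00077), with culture-adjusted values of -1.35 and 1.44. The checkpoint kinase Bub1b and cyclin E (Ccne1) had log2FC of -1.46 and -1.71. The proliferation marker Mki67 had a log2FC of -0.33 ± 0.30 (edgeR adjusted p = 0.54). Cdk1, Bub1b and Ccne1 lost their calls in 3, 6 and 9 of the 10 fits without 1 library.

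**Figure D4:**
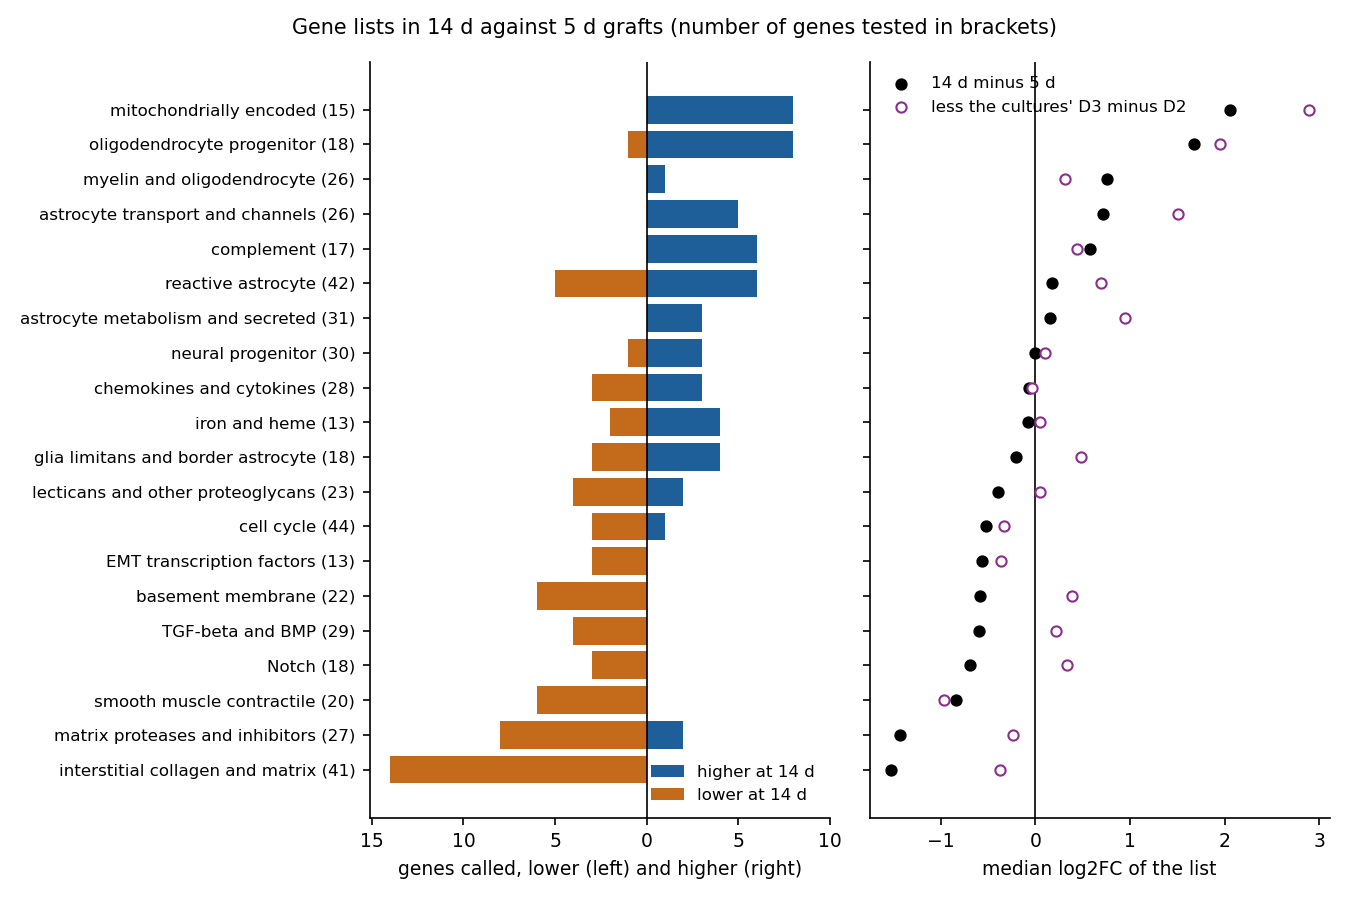
Gene lists in 14 d against 5 d grafts, with the number of DEGs lower (orange, left) and higher (blue, right) and, on the right, the median log2FC as measured (filled) and after subtracting NPC P15 D3 against NPC P15 D2 (open). Interstitial collagen and matrix has the most lower DEGs (14 of 41), and the medians of basement membrane, TGF-beta and Notch genes go from -0.58, -0.60 and -0.69 to 0.39, 0.22 and 0.34.

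Markers of other cells were read in the same fit. Of 20 pericyte and fibroblast genes 6 were lower and 1 higher (Pdgfra), with a median log2FC of -1.34, and 10 were lower and 0 higher without the 2 libraries that stood apart. With the cultures subtracted 2 were lower and 3 higher, with a median of 0.26. Their sum went from 8156 to 19778 CPM at 5 d to 1705 to 4825 CPM at 14 d. Pdgfrb, the receptor of pericytes, was at 216, 333, 339.7, 112 and 126 CPM at 5 d and 21.7, 21.6, 25.9, 33.2 and 56.4 CPM at 14 d (log2FC -2.58 ± 0.41, edgeR adjusted p = 0.0019). It was present in all 5 d libraries and lower in all 14 d ones, and the list shares Col1a1 and Lum with the matrix genes above. The share of host fibroblast RNA in the matrix genes was not tested. Of 15 endothelial genes 0 were called in edgeR, with sums of 81.1 to 516 CPM and 81.0 to 148 CPM. Of 30 microglia and macrophage genes 1 was lower, Lpl (log2FC -2.25), and the median of -1.17 became 0.59 without 5 d replicate 4. Without 14 d replicate 5 as well, 2 were higher and 2 lower. Of 15 Schwann cell genes 2 (Pou3f1 and Erbb3) and of 24 neuron genes 1 (Elavl4) were higher, and 7 neuron genes and 5 Schwann cell genes were higher without the 2 libraries that stood apart. Of 33 interferon response genes 0 were called in edgeR, with a median of 0.52. With the cultures subtracted 11 were higher and 1 lower. Subtracting all paired against single-read cultures instead gave 2 higher and 3 lower, so those calls depended on the cultures subtracted.

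Some transcripts were present at 5 d and all but gone at 14 d. Gcg, which encodes the precursor of glucagon, was at 21.8, 42.2, 13.9, 7.05 and 16.6 CPM at 5 d and had 0 counts in all 5 libraries at 14 d, in the 3 groups of NPC P15 cultures, in the other 14 d grafts and in healthy and 14 d SCI host astrocytes. It was at least 274-fold lower at 14 d against a floor of 3 counts in the shallowest 14 d library. Arg1, arginase 1, which reparative macrophages make, was at 9.69, 19.9, 31.9, 89.5 and 9.34 CPM at 5 d and at 0.582, 0.0313, 0, 0 and 0 CPM at 14 d, and was highest in 5 d replicate 4. The coagulation factor F7 was at 6.35, 6.42, 3.66, 31.5 and 2.41 CPM at 5 d and at 0.103 CPM in 1 library and 0 in 4 at 14 d. Lrrc15, a marker of TGF-beta-activated fibroblasts, and the tenascin Tnn had log2FC of -6.28 and -4.67, Lrrc15 losing its call in 8 of the 10 fits without 1 library. Crabp1, which binds retinoic acid, and the annexin Anxa8 had log2FC of -4.39 and -4.24, and Il17b, a cytokine, rose by 5.13 from 0 to 1.20 CPM up to 1.48 to 25.7 CPM.

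The grafts also differed in genes that tell the NPC derivations apart in culture. Tspan6, a tetraspanin, was at 178, 182, 203, 62.0 and 198 CPM at 5 d and at 0.789, 3.28, 3.51, 6.11 and 5.36 CPM at 14 d (log2FC -5.20 ± 0.54, edgeR adjusted p = 0.00025). In culture it was at 118.8 to 204 CPM in the first derivation (NPC P5, NPC P15 and NPC P30). It was at a lowest level of 168.8 CPM in the second, but at 1.43 to 2.19 CPM in the third. In 4 of 5 libraries the 5 d grafts were thus at the level of the first and second derivations, and all 14 d grafts were nearer to that of the third. Host astrocytes had 51.7 to 79.4 CPM in healthy cord and 76.7 to 92.9 CPM after SCI.
To see if others did the same, genes were taken that had 10 CPM or more in every culture library of the first and second derivations and at least 10 times less in every library of the third, a rule written after Tspan6 was seen. It found 7 genes, Chl1, Mbd1, Bag3, Mtmr1, Tspan6, Evc2 and Ric3, and 0 genes in the reverse direction. All 7 had log2FC below 0 at 14 d, 3 were DEGs (Tspan6, Mbd1 and Mtmr1) and in 5 the groups did not overlap. Over all genes tested, 2.58% were lower DEGs and 8.60% had 14 d below without overlap. Tspan6, which prompted the rule, is among the 7. None is in a read class. Mbd1, a reader of methylated DNA, was at 24.03 to 38.9 CPM at 5 d and 4.91 to 10.0 CPM at 14 d, against 0 to 0.0327 CPM in the third derivation, and Mtmr1, a lipid phosphatase, at 14.7 to 29.7 CPM and 5.39 to 9.36 CPM, against 0.0327 to 0.126 CPM. Bag3, a stress chaperone, overlapped between times at 30.1 to 93.95 CPM and 14.5 to 51.8 CPM. By the rule these genes were high in paired (first derivation) and single-read (NPC P15 D2) cultures alike. Other 14 d grafts, in uninjured cord and after a double crush, had medians of 10.44 and 10.16 CPM for Tspan6 and 28.84 and 59.298 CPM for Chl1. For Mbd1, Bag3, Mtmr1, Evc2 and Ric3 these medians were nearer to the 5 d median than to that at 14 d. Mbd1, for example, was at 20.16 and 27.69 CPM. Host astrocytes expressed all 7 genes, Ric3 for example at a median of 94.14 CPM in healthy cord. Time and the derivation that was grafted cannot be told apart for them, and the part of host RNA was not tested.

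**Figure D5:**
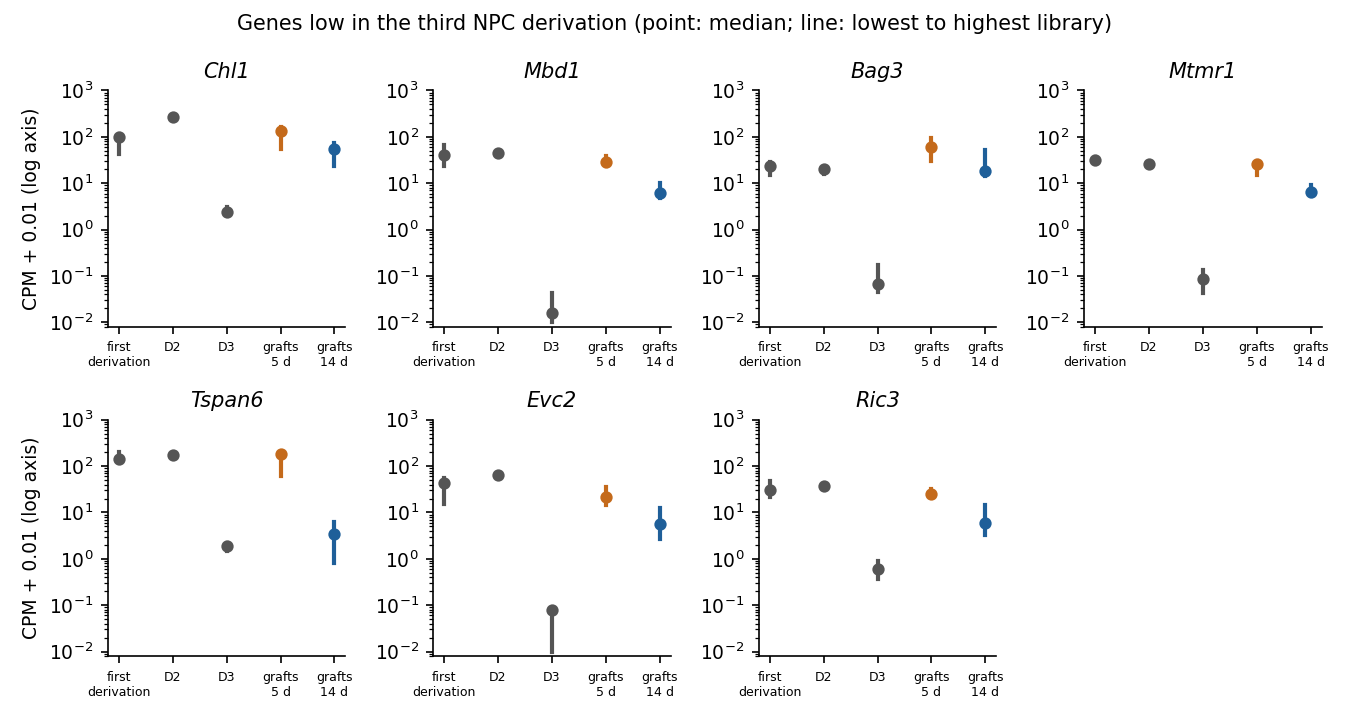
CPM (plus 0.01, log axes) of 7 genes that are low in NPC P15 D3, in cultures of the 3 derivations (grey), 5 d grafts (orange) and 14 d grafts (blue), with a point at the median and a line from the lowest to the highest library. Tspan6 is at 62.0 to 203 CPM in 5 d grafts and 0.789 to 6.11 CPM in 14 d grafts, beside 1.43 to 2.19 CPM in NPC P15 D3, and the other 6 genes also sit lower at 14 d.

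Each time was also set against cultures of its own read type, so that neither contrast spans read types. The 14 d grafts against paired cultures had 10332 DEGs of 16063 genes (64.3%), with 33.7% higher and 30.6% lower. The 5 d grafts against single-read cultures had 9590 of 13830 (69.3%), with 35.6% higher and 33.8% lower. Each uses one of the graft groups compared above, so the values are given side by side. The baselines differ, being NPC P15 D2 at 5 d and the mean of NPC P15 and NPC P15 D3 at 14 d. A difference between the 2 values of a gene therefore also carries what those cultures differ by, and is not a time course. For the 26 astrocyte transport genes, 19 were higher and 3 lower at 5 d, with a median of 1.94, and 23 were higher and 1 lower at 14 d, with a median of 3.67. For the border astrocyte list the medians were 5.14 and 6.80 and for the complement list 7.60 and 9.32. For the 41 matrix genes 35 were higher at 5 d and 33 at 14 d, with medians of 3.80 and 3.69. Tnc was at -1.08 at 5 d and -4.23 at 14 d, and Fbln2 at -0.85 and -3.37. Postn was above culture at both times, at 7.99 and 5.82, and Acta2 too, at 7.53 and 5.89. Chil1 was at 5.97 and 11.83, Lcn2 at 6.15 and 12.53, and Aqp4 at 8.66 and 9.79. The 44 cell cycle genes were all lower than in culture at both times, with medians of -3.73 at 5 d and -3.76 at 14 d.

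The gene panels that the study uses for astrocyte, progenitor and EMT states were counted last. Its other panels, such as that of reactivity genes, were not counted here. The astrocyte panel was compiled by the study from archival astrocyte datasets and the EMT panel was adapted from public gene sets. Of 388 astrocyte panel genes tested 35 were higher and 17 lower, with a median log2FC of 0.04. Without the 2 libraries that stood apart 47 were higher and 44 lower, with a median of -0.02, and with the cultures subtracted 100 of 393 were higher and 29 lower, with a median of 0.57. Of the EMT panel genes 4 were higher, 54 lower and 130 not called, with a median of -0.88, and 9 and 81 without the 2 libraries that stood apart. Under the culture adjustment 21 EMT panel genes were higher and 44 lower, with a median of -0.24. Of 29 progenitor panel genes 2 were higher and 7 lower, with a median of -0.27, and 7 were higher and 10 lower with the cultures subtracted. The 10 genes that the study names for these times, 6 higher and 4 lower, were all DEGs here, and 8 stayed DEGs in the same direction under the culture adjustment, the exceptions being Myoc and Postn. The study picked those 10 from these libraries, so they are not independent evidence of a direction.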

How the data were processed

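RiboTag libraries of 10 grafts were compared, with 14 NPC culture libraries to gauge read type. The rules on derivations also used the NPC P5 and NPC P30 cultures. The deposited values are raw gene counts. To make them, the authors joined lanes in Galaxy, trimmed with Trimmomatic, aligned to mm10 with HISAT2 and ran featureCounts at default settings, which is unstranded and counts both mates of a pair. Halving the paired counts gave 820 DEGs. Single and paired counts of hard-to-place reads can also differ for reasons other than that scale. Of 27179 genes, 25275 were named from RefSeq, 18 from GENCODE and 1886 had no name. Genes were filtered by filterByExpr (minimum count 10), scaled by TMM and tested with the quasi-likelihood test of edgeR 4.0.16 in R 4.3.3, and DEGs had Benjamini-Hochberg adjusted p below 0.01. In simulated grafts with 14743 genes, 63 of 100 genes changed 4-fold and 5 of 100 changed 2-fold were recovered, with 1 false call. DESeq2 1.42.0, other filters and scalings, a replicate block, halved and thinned paired counts, subtraction of culture differences, removal of read classes and leaving out libraries were the alternatives. Genes named were the 10 largest DEGs each way at 10 CPM or more with groups apart, up to 5 per list by adjusted p, and the study's own. Others, such as Col1a1, Pdgfrb, Fabp7 and Mbp, were chosen after their values were seen. Some list members are counted but not reported here by name. The members and lists were chosen with earlier results of these data known.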

Additional observations from a re-analysis of the deposited data

Results flagged for a closer look

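In 16 sets of 5 libraries 1 library lay far from the other 4 by Dixon's criterion and in 88 sets checked none did, and chance meets the criterion in about 1 set in 20. The sets are not independent, since several share the same libraries, and no cause was tested.

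Replicate 4 at 5 d accounted for 7 of the 16. It was highest for the microglia and macrophage list at 32512 CPM (others 2012 to 3319), for the neuron list at 3082 CPM (783 to 1234), for Spp1 at 12437 CPM (921 to 2286) and for Arg1 at 89.5 CPM (9.34 to 31.9). It was also highest for the copies Rps27rt at 0.282 CPM (0 to 0.0669) and Gm5148 at 0.634 CPM (0 to 0.163), and lowest for Tspan6 at 62.0 CPM (178 to 203).

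Replicate 5 at 5 d was the highest in 6 sets. All 6 were of genes or lists that were higher at 14 d, so a high value could only lie towards the 14 d level. These were Lcn2 at 444.8 CPM (18.9 to 57.5), C3 at 389 CPM (95.3 to 177), Saa2 at 1.34 CPM (0 to 0.282), Hepacam at 358 CPM (149 to 202), Olig2 at 132 CPM (47.3 to 69.8) and the oligodendrocyte progenitor list at 2618 CPM (1362 to 1559).

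At 14 d, Arg1 was highest in replicate 1 at 0.582 CPM (0 to 0.0313), Ncan was lowest in replicate 5 at 141 CPM (177 to 191.8), and the microglia and macrophage list was highest in replicate 5 at 5071 CPM (1528 to 2335).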

How the results depend on the processing

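The 811 DEGs became 1773 with DESeq2 and 1404 without 5 d replicate 4 and 14 d replicate 5, an alternative chosen after seeing the data, and 350 to 1191 without 1 library. They were 796 to 854 with other size factors or filters or with halved or thinned paired counts, and 657 without the read classes. Subtracting culture differences gave 3330 (paired against single-read), 2205 (NPC P15 against NPC P15 D2) and 3822 (NPC P15 D3 against NPC P15 D2), a fit that adds the tighter cultures, so these counts are not of the grafts alone. Of 95 called genes named, 62 were called in every fit that left out 1 library.

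Same-numbered libraries share only a number, with correlations of -0.0215 to 0.0622 between times. With the replicate block 269 DEGs were found, and 55 of the 95 kept their calls with 0 reversed.

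Signs turned only under subtraction among the alternatives run, and the cause was not tested. Less paired against single-read cultures, the log2FC were -0.76 for Fam107a, -2.66 for Gm5148, -0.65 for Gm6793, -1.41 for the gene 100504654, 1.24 for Il33, -1.45 for Myoc and -0.59 for Rps27rt. Less NPC P15 against NPC P15 D2, they were -1.66 for Fam107a, -2.23 for Gm5148, -0.49 for Gm6793, -0.63 for 100504654, 1.85 for Il33, -1.36 for Myoc and 0.64 for Spp1. Less NPC P15 D3 against NPC P15 D2, 11 of the 95 called genes named turned, not all of them reported here by name. Those reported were -1.64 for Bc1, -3.05 for Gm5148, -0.78 for Gm6793, -2.12 for 100504654, 0.73 for Il33, 0.34 for Jag1, -1.26 for Myoc, -1.27 for Rps27rt, 1.48 for Tgfbi and 1.33 for Tspan6. Other list members mentioned above, such as Pdgfra and Lum, were not among the 95 and also turned. Myoc and Fam107a had almost no counts in NPC P15 D2. In the simulated grafts, where 200 genes were changed, most 2-fold changes were not recovered. The grafts themselves had 811 DEGs, so the share of 2-fold changes called there can differ.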
